A study of Mus musculus with 338 samples.

Results

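Islets of A/J mice fed a diet high in fat and sugar (HFHS) for 30 days were compared with those of A/J mice kept on regular chow (RC) for the same time. All 16 libraries of this strain and time were used, 8 on HFHS and 8 on RC, chosen by their labels for strain, time point and diet. They are 4.73 percent of the libraries of the whole series, which has 172 on HFHS and 166 on RC. A/J is an inbred mouse strain, and the labels name no transgene, age or sex. The series covers 6 inbred strains on both diets for 2, 10, 30 or 90 days, and 79 libraries of the other 5 strains at day 30 and 37 of A/J at the other times served for comparison. Each library holds the RNA of at least 150 islets from 1 mouse, so p-values measure the spread between mice, in which library preparation is not separated.

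Islets are small clusters of endocrine cells in the pancreas, most of them beta cells that make insulin. Beta cells couple the oxidation of glucose to insulin release, and they also take up and oxidise fatty acids. Fatty acids enter mitochondria as carnitine esters, and nuclear receptors of the PPAR family raise the genes of this route when fatty acids are abundant. A diet rich in fat and sugar loads both routes.

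A library held 26846420 to 42403058 sequenced reads, of which 15821505 to 29543611 were assigned to genes. That share was 49.6 to 70.6 percent on HFHS and 66.0 to 71.3 percent on RC, with medians of 63.9 and 70.8 percent. In 4 of the 8 HFHS libraries it was below that of every RC library, and HFHS mouse 27 was the lowest. The part of this difference in the results was not tested. Ins1 and Ins2, the insulin genes, took 20.2 to 30.4 percent of the assigned reads, and Gcg (glucagon), Sst (somatostatin) and Ppy (pancreatic polypeptide) were found in every library. The acinar markers, genes of the enzyme-secreting cells around islets, summed to 576 to 17317 CPM (counts per 1000000 reads assigned to genes) on HFHS and 1002 to 27976 CPM on RC. Of the adipocyte markers, 0 of 7 passed the filter on low counts. By 200 genes that differ most between strains, 16 of 16 libraries lay nearest to the other A/J libraries.

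Of 14334 genes tested with edgeR's quasi-likelihood test, 19 had a p below 0.05 after Benjamini-Hochberg adjustment, which is 0.133 percent, 10 higher on HFHS and 9 lower. At an unadjusted p under 0.05 there were 994 genes, and the median log2 fold change of all genes was 0.0077. The genes that passed included enzymes and regulators of fat metabolism (Cpt1a and Angptl4, higher) and a glucose transporter (Slc2a1, lower). Also among them were a protein of the insulin granule (Sytl4, higher) and a neuropeptide (Adcyap1, lower). With 1 library left out in turn, Cpt1a and Slc2a1 passed in all 16 fits and Angptl4 in 13. Sytl4 passed in only 4 of these fits and Adcyap1 in 3. Most changes were modest: 3 of the 19 exceeded 1 on the log2 scale, and the smallest was 0.25. After scaling by trimmed mean of M values (TMM), 21 genes had all 8 HFHS mice above or below all 8 RC mice, which is 0.147 percent of the genes tested, and 15 of these were among the 19.

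**Figure D1:**
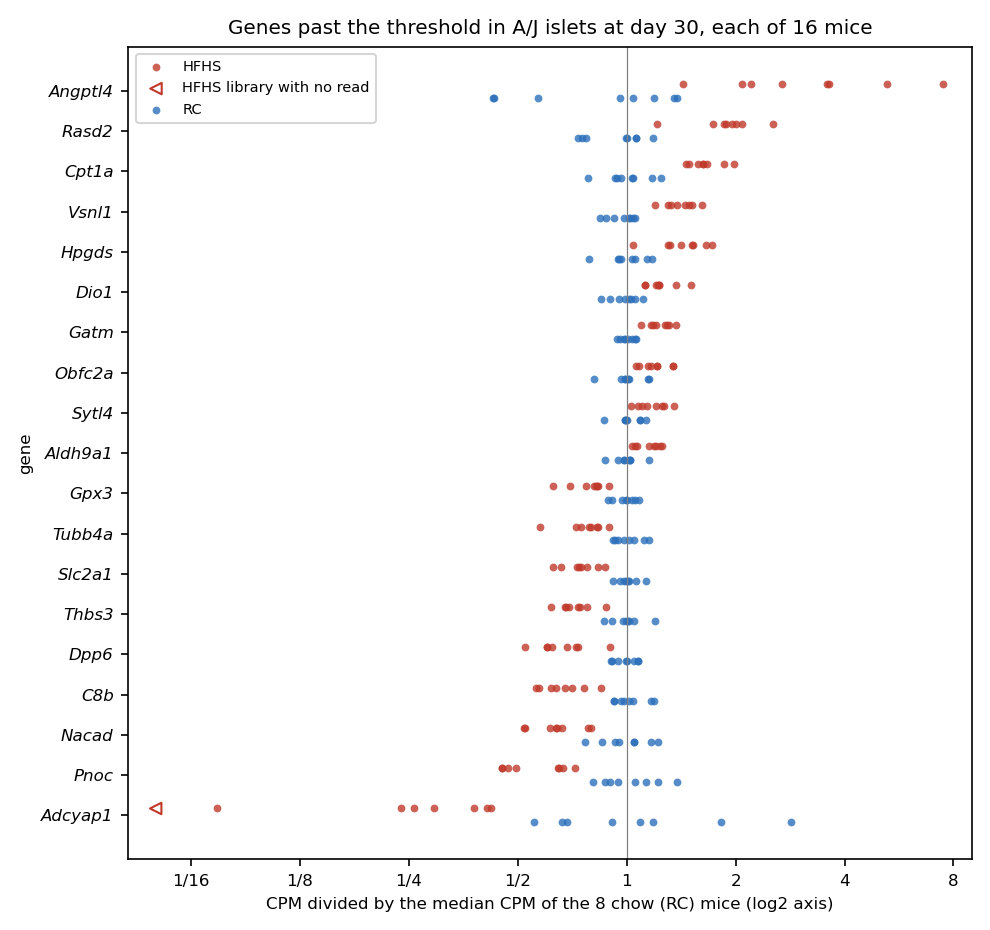
Each point is 1 mouse, its CPM divided by the median CPM of the 8 RC mice, on a log2 axis, for the 19 genes past the threshold (red, HFHS; blue, RC). For Cpt1a the HFHS mice (68.5 to 93.4 CPM) lie wholly above the RC mice (36.7 to 58.5 CPM), and the open triangle marks the HFHS library with no Adcyap1 read.

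For 3 of the 19 genes the reference sequence around the transcription start is shown. Cpt1a and C8b passed in all 6 strains, and the diet effect of Sytl4 in A/J differed from the mean of the other strains. Vsnl1 also passed in all 6 strains and is not shown, and no window of it holds the motif AGGTCA marked below. The windows run from 250 bases before to 50 after the start and come from RefSeq, build GRCm38.p6. Cpt1a lies on the plus strand at chr19:3323051-3323350, C8b on the plus strand at chr4:104766067-104766366, and Sytl4 on the minus strand at chrX:133981763-133982062. Capitals mark AGGTCA on either strand, the half-site that PPAR and related nuclear receptors bind in pairs.
Cpt1a: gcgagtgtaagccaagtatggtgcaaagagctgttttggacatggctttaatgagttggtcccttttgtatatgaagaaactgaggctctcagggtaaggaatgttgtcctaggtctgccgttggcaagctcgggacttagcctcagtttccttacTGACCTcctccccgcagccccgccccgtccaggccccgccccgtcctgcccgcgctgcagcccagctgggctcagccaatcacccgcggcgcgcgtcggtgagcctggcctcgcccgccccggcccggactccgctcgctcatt
C8b: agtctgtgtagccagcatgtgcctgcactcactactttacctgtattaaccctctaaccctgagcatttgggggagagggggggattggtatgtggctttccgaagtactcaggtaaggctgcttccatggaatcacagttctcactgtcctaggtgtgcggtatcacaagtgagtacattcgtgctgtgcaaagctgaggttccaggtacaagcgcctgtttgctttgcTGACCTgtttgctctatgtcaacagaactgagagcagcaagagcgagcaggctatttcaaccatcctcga
Sytl4: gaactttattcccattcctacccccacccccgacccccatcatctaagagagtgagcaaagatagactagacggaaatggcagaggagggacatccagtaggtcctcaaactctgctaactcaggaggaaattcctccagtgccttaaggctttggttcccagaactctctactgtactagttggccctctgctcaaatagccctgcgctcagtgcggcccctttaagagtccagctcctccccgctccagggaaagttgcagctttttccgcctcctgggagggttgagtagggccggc
Cpt1a and C8b each hold 1 such run, and Sytl4 holds 0. Of the 19 genes, 17 had a window in the table (Obfc2a under its newer symbol Nabp1), and 4 of them hold AGGTCA (C8b, Cpt1a, Dpp6 and Gatm), against 16.3 percent of all 32851 windows. Angptl4 and Pnoc had no window. The motif CACGTG, searched on both strands, was in 0 of the 17, against 7.2 percent of all windows, and CCAAT was in 11 of the 17, against 37.4 percent. For each motif a gene counted when any of its windows held it, while the percentages are of single windows. The gene counts and the percentages are therefore not in the same unit.

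The gene with the smallest p was Cpt1a, which makes the carnitine esters that carry long-chain fatty acids into mitochondria and is the controlled step of their oxidation. Its level had a lowest value of 68.5, a median of 76.4 and a highest value of 93.4 CPM on HFHS, against 36.7, 47.03 and 58.5 CPM on RC. The diets did not overlap. The log2 fold change was 0.76 with a standard error (SE) of 0.0747 and an adjusted p of 4.36e-05 by edgeR. Angptl4, a secreted inhibitor of lipoprotein lipase and a classic PPAR target, stood at 2.27, 4.97 and 11.9 CPM on HFHS and 0.681, 1.59 and 2.19 CPM on RC. It is expressed at a low level, and the lowest HFHS mouse was just above the highest RC mouse. Its log2 fold change was 2.00 (SE 0.340, adjusted p 0.0214). Aldh9a1, an enzyme of carnitine synthesis among others, rose by a log2 fold change of 0.25 (SE 0.0448, adjusted p 0.0279), with 101.2 to 122.3 CPM on HFHS and 85.2 to 113.2 CPM on RC, so that the ranges overlapped.

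In the list of fatty acid oxidation genes and PPAR targets, 32 of 34 members were tested and 2 passed, both higher. The log2 fold change was above 0 in 26 of the 32, with a median of 0.11, against 53.3 percent above 0 and a median of 0.0077 over all genes. At an unadjusted p under 0.05 there were 16 members higher and 2 lower, against 6.9 percent of all genes tested in either direction. The list was chosen with earlier results of these data known, so these counts are not an independent test. The highest-expressed members did not pass: Hadh, a mitochondrial dehydrogenase of fatty acid oxidation, had a log2 fold change of 0.02 (adjusted p 0.956), Ucp2, a mitochondrial carrier, 0.04 (adjusted p 0.949), and Hadha, a subunit of the trifunctional protein, 0.08 (adjusted p 0.863). Members chosen after their values were seen are the 2 that follow. Slc25a20, the carnitine and acylcarnitine carrier, stood at 15.3 to 26.1 CPM on HFHS and 13.8 to 19.3 CPM on RC (log2 fold change 0.42, adjusted p 0.0779). Plin2, a protein that coats lipid droplets, stood at 19.2 to 34.4 CPM on HFHS and 16.2 to 23.8 CPM on RC (log2 fold change 0.44, adjusted p 0.198). For each of these 2, all 8 HFHS mice lay above the RC median, yet the ranges overlapped and the threshold was missed. The transcripts of the receptors were low or did not pass: Ppara, which had a mean of 0.914 CPM, had a log2 fold change of -0.58 (adjusted p 0.594), Ppard -0.13 (adjusted p 0.675) and Pparg -0.03 (adjusted p 0.974).

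**Figure D2:**
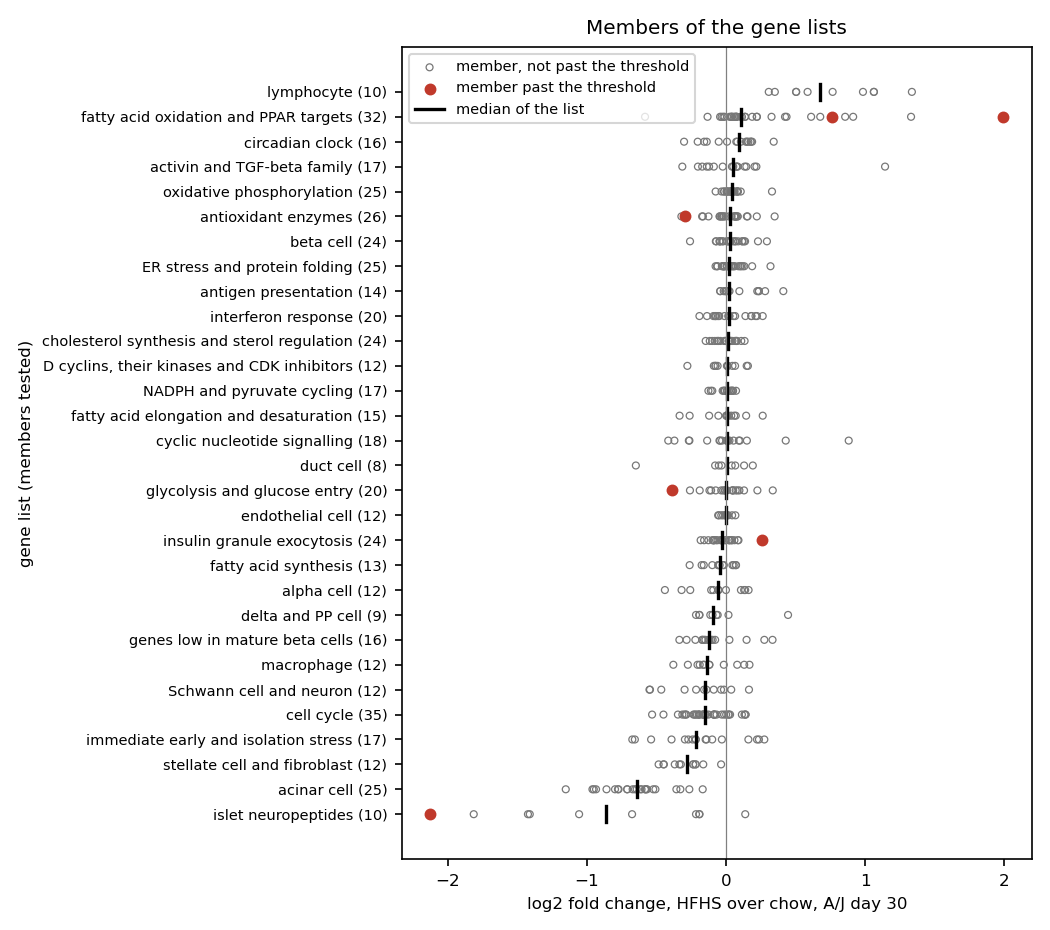
Each point is the log2 fold change (HFHS over RC, A/J day 30) of 1 member of a gene list, filled where the member passed the threshold, and the black bar is the median of the list. The fatty acid oxidation list has a median of 0.11 with 2 members past the threshold, and the neuropeptide list a median of -0.87 with 1.

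On the glucose side, Slc2a1, which encodes the glucose transporter GLUT1, fell. Its lowest, median and highest values were 15.2, 18.1 and 21.1 CPM on HFHS, against 22.2, 24.3 and 27.4 CPM on RC, with no overlap. The log2 fold change was -0.39 (SE 0.0486, adjusted p 1.11e-03). It was the 1 member of the glycolysis and glucose entry list that passed, of 20 tested, and the list had a median of 0.00 with 10 members above 0. Slc2a2, the GLUT2 transporter that mouse beta cells mainly use, was far higher at a mean of 693 CPM and had a log2 fold change of 0.07 (SE 0.102, adjusted p 0.949). The level of the glucose-6-phosphatase gene G6pc2 gave 0.13 (adjusted p 0.807).

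The islet hormone genes did not pass. Ins2 stood at 124571, 156956 and 200001 CPM (lowest, median, highest) on HFHS and 145086, 152400 and 190205 CPM on RC, with a log2 fold change of 0.09 (SE 0.105, adjusted p 0.949). Ins1 gave 0.05 (SE 0.0836, adjusted p 0.949) and Gcg -0.11 (SE 0.105, adjusted p 0.949). Sst stood at 2251 to 3024 CPM on HFHS and 2874 to 4140 CPM on RC, with a log2 fold change of -0.22 (SE 0.0864, adjusted p 0.599), and 0 of 8 HFHS mice lay above the RC median. Ppy gave -0.19 (SE 0.321, adjusted p 0.949), with HFHS mice from 901 to 6510 CPM. Of the beta cell markers, 0 of 24 passed, 16 were above 0 and the median was 0.03. Of the alpha cell markers, 0 of 12 passed and the median was -0.06. 

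Genes of granule release gave 1 call. Sytl4, known as granuphilin, binds Rab27a on insulin granules and docks them at the plasma membrane. It stood at 483, 550 and 632 CPM on HFHS and at 407, 469 and 531 CPM on RC. The ranges overlapped, but all 8 HFHS mice lay above the RC median. The log2 fold change was 0.26 (SE 0.0497, adjusted p 0.0460). Of the 24 tested members of the insulin granule exocytosis list, 1 passed and 9 were above 0, with a median of -0.03. The highest-expressed of the others, the granin Chga and the prohormone-trimming enzyme Cpe, gave log2 fold changes of -0.03 (adjusted p 0.949) and -0.01 (adjusted p 0.982).

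Adcyap1, the neuropeptide PACAP that raises glucose-stimulated insulin release, was the gene with the largest fall. It was barely expressed: 0.000, 0.327 and 0.497 CPM (lowest, median, highest) on HFHS and 0.656, 1.18 and 3.35 CPM on RC. These levels rest on at most 12 reads in an HFHS library and on 13 to 99 reads in an RC library. HFHS mouse 27 had no read among 15821505, and a count of 0 allows up to 0.19 CPM, by 3 counts and for counting error only. The diets did not overlap, and the fitted log2 fold change was -2.13 (SE 0.414, adjusted p 0.0469).

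The list of islet neuropeptides was also chosen with earlier results of these data known, so its counts are not an independent test. In this list, 9 of 10 members tested were below 0, with a median of -0.87, and 1 passed. At an unadjusted p under 0.05 there were 0 higher and 6 lower. Over all genes tested, 53.3 percent were above 0 and 6.9 percent had such a p in either direction. The hormone-like members with the highest levels, Ppy, Sst and Pyy, had log2 fold changes of -0.19, -0.22 and -0.19. The other members are named after their values were seen. Penk, the precursor of the enkephalins, was the 1 member above 0, at 0.14 (SE 0.322, adjusted p 0.969), and Gal, the peptide galanin, gave -1.06 (SE 0.643, adjusted p 0.855). Vip, the vasoactive intestinal peptide of pancreatic nerves, stood at 2.09, 32.1 and 43.3 CPM on HFHS and 46.4, 73.0 and 131.7 CPM on RC, with a log2 fold change of -1.41 (SE 0.390, adjusted p 0.288). In CPM its diets did not overlap, but the TMM-scaled values did, and the test was missed. Cartpt, the precursor of the CART peptide, gave -1.82 (SE 0.390, adjusted p 0.0967), Tac1, the precursor of substance P, -1.42 (SE 0.386, adjusted p 0.261), and Npy, neuropeptide Y, -0.68 (SE 0.181, adjusted p 0.247). Of the 7 members other than Ppy, Sst and Pyy, 6 had their lowest HFHS level in mouse 27. Without that library, 9 of the 10 were still below 0 and the median was -0.82, but Adcyap1 had an adjusted p of 0.0592.

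The Schwann cell and neuron markers lay in the same direction: 10 of 12 were below 0 with a median of -0.15, 0 passed, and their summed level was 220 to 321 CPM on HFHS and 282 to 344 CPM on RC. Stellate cell and fibroblast markers were below 0 in 12 of 12, with a median of -0.28 and a summed level of 368 to 1158 CPM on HFHS and 796 to 1220 CPM on RC. Acinar markers were below 0 in 25 of 25 tested, with a median of -0.64 and wide spread between mice, and lymphocyte markers above 0 in 10 of 10, with a median of 0.68 and a summed level of 24.4 to 253 CPM on HFHS and 22.1 to 189 CPM on RC. In none of these lists did a member pass by edgeR. The lists were chosen with earlier results of these data known. At an unadjusted p under 0.05 the neuron list had 3 members lower and 1 higher, the stellate list 4 lower, the acinar list 0 and the lymphocyte list 1 higher. Over all genes tested, 53.3 percent were above 0 and 6.9 percent had such a p in either direction. In a bulk sample, fewer cells of a type and less RNA per cell cannot be told apart, and the part of these cells in the results above was not tested.

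Vsnl1, a calcium sensor protein of neurons that is also found in islets, was the gene with the second smallest p. Its lowest, median and highest values were 20.2, 24.0 and 27.4 CPM on HFHS and 14.2, 16.9 and 17.9 CPM on RC. The diets did not overlap, and the log2 fold change was 0.58 (SE 0.0579, adjusted p 4.36e-05). Rasd2, a small GTPase related to Ras, stood at 9.37, 14.8 and 19.6 CPM on HFHS and 5.66, 7.71 and 9.12 CPM on RC. Here too the diets did not overlap (log2 fold change 1.07, SE 0.141, adjusted p 1.55e-03). Dpp6, an auxiliary subunit of voltage-gated potassium channels, fell from a median of 23.9 to 15.6 CPM, with the highest HFHS mouse (21.52 CPM) just below the lowest RC mouse (21.55 CPM). Its log2 fold change was -0.52 (SE 0.0768, adjusted p 5.65e-03). Tubb4a, a beta tubulin isotype, fell by 0.34 on the log2 scale (SE 0.0588, adjusted p 0.0211). Tubulin genes are similar in sequence, so its reads may be shared with paralogs.

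Among secreted proteins and enzymes, C8b, the beta chain of complement component 8, fell. It stood at 7.96, 9.31 and 12.1 CPM on HFHS and 13.1, 14.2 and 16.9 CPM on RC, with no overlap, a log2 fold change of -0.56 (SE 0.0799) and an adjusted p of 3.40e-03. Gpx3, the secreted glutathione peroxidase, was the highest-expressed gene of the 19 and stood at 427, 556 and 610 CPM on HFHS and 605, 680 and 736 CPM on RC. The CPM ranges overlapped slightly, although the TMM-scaled values did not, and the log2 fold change was -0.29 (SE 0.0553, adjusted p 0.0400). It was the 1 member of the antioxidant enzyme list that passed, of 26 tested, and the median of that list was 0.03. Thbs3, a thrombospondin of the extracellular matrix, fell by 0.42 on the log2 scale (SE 0.0698, adjusted p 0.0168), with 15.1 to 21.6 CPM on HFHS and 21.3 to 29.4 CPM on RC.

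Enzymes of other routes rose. Hpgds, the hematopoietic prostaglandin D synthase, stood at 9.35, 13.1 and 15.5 CPM on HFHS and 7.04, 8.96 and 10.5 CPM on RC. The CPM ranges overlapped, although the TMM-scaled values did not, with a log2 fold change of 0.56 (SE 0.0878, adjusted p 0.0104). Dio1, a deiodinase that activates thyroid hormone, stood at 43.2, 47.2 and 58.1 CPM on HFHS and 32.8, 38.5 and 42.7 CPM on RC, with no overlap and a log2 fold change of 0.39 (SE 0.0640, adjusted p 0.0149). Gatm, the first enzyme of creatine synthesis, gave 0.35 (SE 0.0628, adjusted p 0.0279). Obfc2a, which encodes a single-stranded DNA binding protein, gave 0.29 (SE 0.0565, adjusted p 0.0469). Pnoc, the precursor of the peptide nociceptin, and Nacad fall outside the rule for named genes because of their low level and were named after their values were seen. Pnoc, at a mean of 2.16 CPM, had a log2 fold change of -0.81 (SE 0.151, adjusted p 0.0341), and Nacad, at 4.85 CPM, -0.58 (SE 0.106, adjusted p 0.0326).

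When each of the 16 libraries was left out in turn, 8 of the 19 genes passed every time, namely Cpt1a, Vsnl1, Slc2a1, Rasd2, C8b, Dpp6, Hpgds and Dio1. The highest adjusted p among them was 0.0467, for Dio1 without HFHS mouse 29. Thbs3 missed the threshold in 1 of the 16 fits (0.0549 without HFHS mouse 30), Angptl4 in 3 (up to 0.0551 without HFHS mouse 29) and Tubb4a in 4 (up to 0.0653 without RC mouse 30). Gatm, Aldh9a1, Nacad and Pnoc missed it in 9 each, Gpx3 in 11, Sytl4 in 12, Adcyap1 in 13 and Obfc2a in 14, with adjusted p up to 0.141 for Obfc2a without RC mouse 30. The direction of each of the 19 stayed the same in all 16 fits, which share most of the libraries in which the 19 were called. With a curve of each library on GC content as an offset, 14 of the 19 passed, and Sytl4 (adjusted p 0.0563), Nacad (0.0647), Tubb4a (0.0673), Gatm (0.130) and Gpx3 (0.139) did not.

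Elovl2, the elongase of very long polyunsaturated fatty acids named in the title of the series, did not pass the test. It stood at 17.2, 24.6 and 30.3 CPM on HFHS and 20.7, 25.7 and 28.5 CPM on RC, with a log2 fold change of 0.00 (SE 0.0841, adjusted p 1.00). In the list of elongation and desaturation genes, 0 of 15 passed and the median was 0.01. Of its highest-expressed members, the desaturase Scd2 gave -0.06 and the elongase Elovl5 0.01. Fads2, a desaturase named after its values were seen, stood at 19.96 to 31.3 CPM on HFHS and 26.1 to 34.0 CPM on RC, with a log2 fold change of -0.33 (SE 0.0694, adjusted p 0.0745).

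Other lists, chosen with earlier results of these data known as well, gave no call by edgeR. For comparison, 53.3 percent of all genes tested were above 0 and 6.9 percent had an unadjusted p under 0.05. The cell cycle list had 0 of 35 past the threshold with 8 above 0, a median of -0.15 and 2 members lower at an unadjusted p under 0.05. The oxidative phosphorylation list had 0 of 25 with 21 above 0, a median of 0.04 and 1 member higher at that p. Immediate early and isolation stress genes had 0 of 17 with 4 above 0, a median of -0.22 and 7 members lower at that p. In the ER stress and protein folding list, 0 of 25 passed and 2 were higher at that p, and in the cholesterol list, 0 of 24 passed and 0 reached that p.

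To set A/J beside the other strains, the 12 day-30 groups were fitted together. In that fit 49 genes passed in A/J, 0.315 percent of 15564, and 15 of the 19 were among them. Some genes given above as misses passed in A/J by edgeR in this fit. They were Vip (adjusted p 0.00826), Cartpt (5.47e-04), Tac1 (0.0136), Slc25a20 (0.0183) and Fads2 (0.0275). Npy (0.346), Gal (0.721), Penk (0.967) and Plin2 (0.0547) missed it here too. The other strains had 662 genes in C57Bl/6J (4.25 percent), 723 in AKR/J (4.65 percent), 916 in 129S2/SvPas (5.89 percent), 2757 in BALB/cJ (17.7 percent) and 8630 in DBA/2J (55.4 percent). The DBA/2J mice also had very large log2 diet effects, such as 8.51 for Scand1 and 8.10 for Nrtn. What lies behind these effects and the DBA/2J count was not tested, which limits the DBA/2J values below. In C57Bl/6J, 18 of the 19 genes had the same direction as in A/J and 10 passed in that direction, against 54.4 percent of all genes with the same direction. In AKR/J the counts were 17 and 11 (50.6 percent of all genes), in 129S2/SvPas 17 and 6 (45.7 percent), in DBA/2J 12 and 8 (42.4 percent) and in BALB/cJ 10 and 7 (42.9 percent). In the opposite direction, 5 passed in DBA/2J, 2 in BALB/cJ, 1 in 129S2/SvPas and 0 in the other two. The 10 genes were 52.6 percent of the 19 and 1.51 percent of the calls of C57Bl/6J, and the 11 were 57.9 percent of the 19 and 1.52 percent of the calls of AKR/J.

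**Figure D3:**
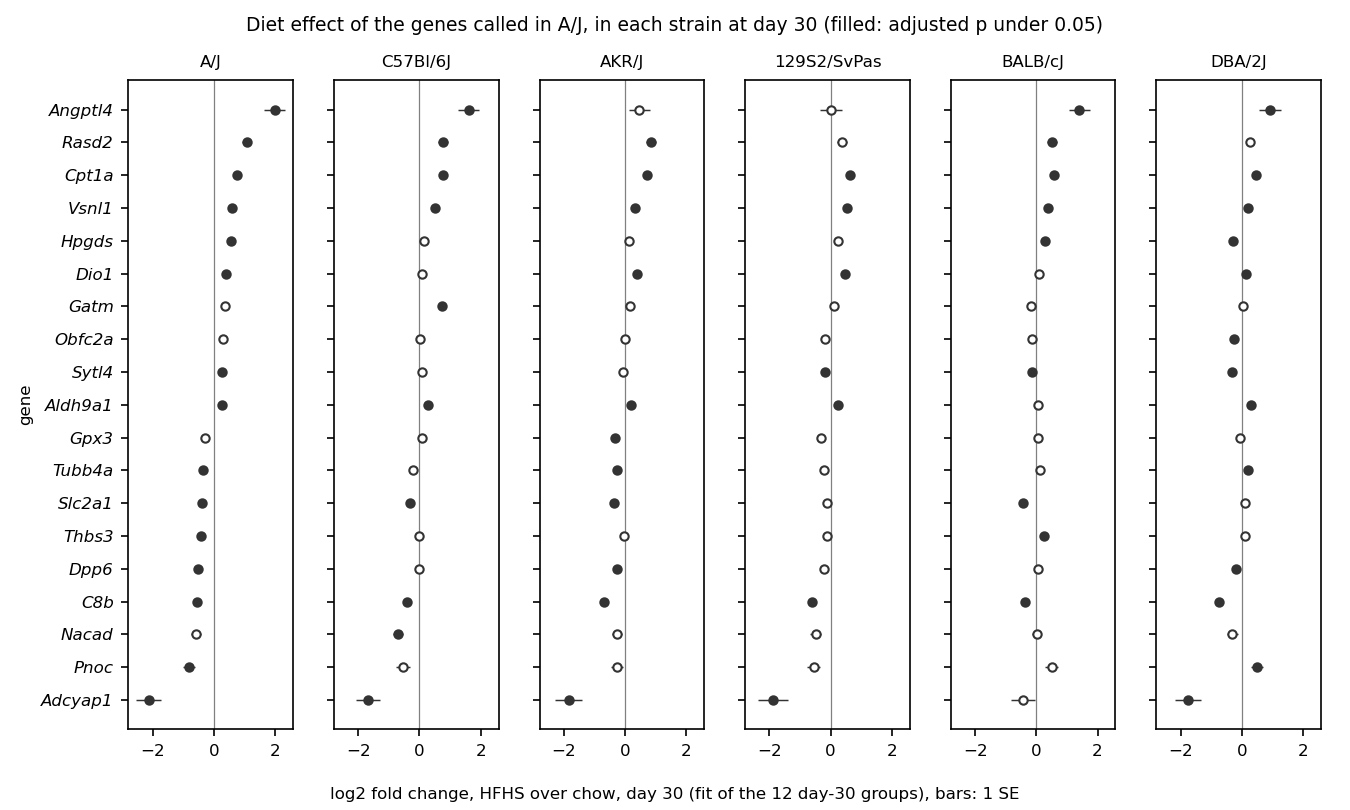
Each point is the log2 fold change of HFHS over RC at day 30 in the fit of the 12 day-30 groups, with 1 SE, for the 19 genes called in A/J (rows) in each strain (panels), filled where the adjusted p was under 0.05. Cpt1a, Vsnl1 and C8b are filled in all 6 panels, and Sytl4 lies above 0 in A/J (0.26) and below 0 in DBA/2J (-0.31).

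Cpt1a, Vsnl1 and C8b passed in the same direction in all 5 other strains. For Cpt1a the log2 fold changes were 0.78 in C57Bl/6J, 0.71 in AKR/J, 0.63 in 129S2/SvPas, 0.57 in BALB/cJ and 0.46 in DBA/2J. For C8b they ran from -0.38 in BALB/cJ to -0.76 in DBA/2J. Adcyap1 and Aldh9a1 passed in 4 of the 5. Adcyap1 gave -1.68 in C57Bl/6J, -1.85 in AKR/J, -1.89 in 129S2/SvPas and -1.76 in DBA/2J, and its estimate in BALB/cJ was -0.44. Angptl4 passed in 3, with 1.61 in C57Bl/6J, 1.41 in BALB/cJ and 0.91 in DBA/2J, while the estimates in AKR/J (0.47) and 129S2/SvPas (0.02) did not pass. The genes that passed in the same direction in 0 of the 5 were Thbs3, Pnoc, Sytl4 and Obfc2a.

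The difference between the diet effect in A/J and the mean of the other 5 strains was tested gene by gene. It passed for 2241 of 15564 genes, 14.4 percent, of which 874 were higher and 1367 lower in A/J. Without the DBA/2J mice 43 genes passed, 0.278 percent, 17 higher and 26 lower. The 8 genes of smallest p (among them Scand1, Gpr45, Nrtn and Prr7) had log2 diet effects of 0.06, 0.01, -0.09 and -0.11 in A/J and 8.51, 6.94, 8.10 and 7.11 in DBA/2J, and 0 of the 8 passed without DBA/2J. One DBA/2J RC library at day 30 had counts that depended on the GC content of genes beyond a bound of 0.5 log2 per 10 GC points, and leaving it out gave 2221 calls. Against all 5 strains with a correction for GC content, 164 genes passed.

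Of the 19 genes, 9 passed in the difference, 4 did without DBA/2J (Sytl4, Thbs3, Dpp6 and Obfc2a), and 3 did against all 5 strains with the GC correction (Sytl4, Dpp6 and Rasd2). The 19 were called with the A/J libraries that also enter the difference, so these counts are not independent of the first test. Sytl4 had the smallest p of all genes without DBA/2J: its diet effect in A/J exceeded the mean of the other 4 strains by 0.33 on the log2 scale (SE 0.0549, adjusted p 9.59e-04). With DBA/2J the difference was 0.38 (SE 0.0523, adjusted p 1.81e-07), and with DBA/2J and the GC correction 0.28 (SE 0.0589, adjusted p 3.28e-03). On HFHS the median was 550 CPM in A/J, 460 in C57Bl/6J, 460 in AKR/J, 327 in 129S2/SvPas, 517 in BALB/cJ and 440 in DBA/2J. On RC it was 469, 437, 484, 376, 575 and 582 CPM in the same order. The medians were higher on HFHS in A/J and C57Bl/6J and lower in the other 4 strains, and the fall passed in DBA/2J (-0.31), 129S2/SvPas (-0.17) and BALB/cJ (-0.15). The levels of A/J on RC lay within the range of the other strains.

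**Figure D4:**
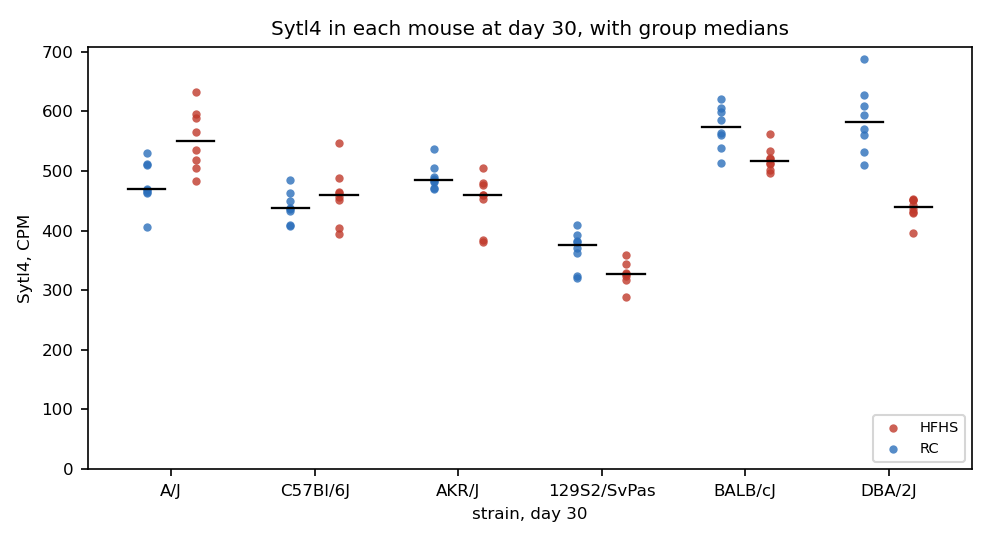
Each point is the Sytl4 level of 1 mouse at day 30 in CPM (red, HFHS; blue, RC), and the black bars are group medians, 550 on HFHS and 469 on RC in A/J. The HFHS mice lie mostly above the RC mice in A/J and wholly below them in DBA/2J.

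Relative to the other 4 strains, the A/J diet effect was -0.44 for Thbs3 (adjusted p 0.0323), 0.37 for Obfc2a (adjusted p 0.0373) and -0.40 for Dpp6 (adjusted p 0.0430). Against all 5 strains and with the GC correction, the adjusted p was 0.0836 for Thbs3, 0.160 for Obfc2a and 0.0148 for Dpp6. For Cpt1a the difference was 0.13 (SE 0.110, adjusted p 0.430), and for Slc2a1, Vsnl1 and Adcyap1 the adjusted p was 0.228, 0.0725 and 0.391.

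Across the 4 times the 8 A/J groups were fitted together. The diet effect passed for 1640 genes at day 2 (10.6 percent of 15535), for 0 at day 10 (0 percent, with 2062 at an unadjusted p under 0.05), for 4 at day 30 (0.0257 percent, Cpt1a, Vsnl1, C8b and Dpp6) and for 2 at day 90 (0.0129 percent, Fos and Upk3b). Groups were smaller at day 2 (6 HFHS and 5 RC mice) and day 10 (6 and 4), and 8 of the 9 A/J libraries beyond the GC bound were at these times. Of the 19 genes, 18 kept the direction of day 30 at day 2, 18 at day 10 and 19 at day 90, against 58.9, 61.9 and 57.9 percent of all genes, and 17 kept it at all 3. Cpt1a, Vsnl1 and Aldh9a1 passed at day 2.

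Cpt1a had log2 fold changes of 1.07 (SE 0.163) at day 2, 0.57 (SE 0.173) at day 10, 0.77 (SE 0.132) at day 30 and 0.53 (SE 0.132) at day 90 in this fit. Its median level on HFHS was 111.2, 66.6, 76.4 and 91.3 CPM, and on RC 40.3, 45.9, 47.03 and 58.3 CPM. The diets overlapped at days 10 and 90 and not at days 2 and 30. Slc2a1 gave -0.91, -0.58, -0.38 and -0.14 and Angptl4 1.03, 1.75, 2.00 and 1.39 at the 4 times, and neither passed at any of the 4 times in this fit. The SD of the Slc2a1 level on HFHS was 5.47 CPM at day 2 (n = 6), 8.38 at day 10 (n = 6), 1.97 at day 30 (n = 8) and 3.00 at day 90 (n = 8). Single mice ran from 3.73 to 18.6 CPM on HFHS and 8.75 to 28.6 CPM on RC at day 2. At day 10 they ran from 2.59 to 23.3 CPM on HFHS and 9.20 to 26.2 CPM on RC, so the early Slc2a1 estimates rest on widely spread libraries.

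**Figure D5:**
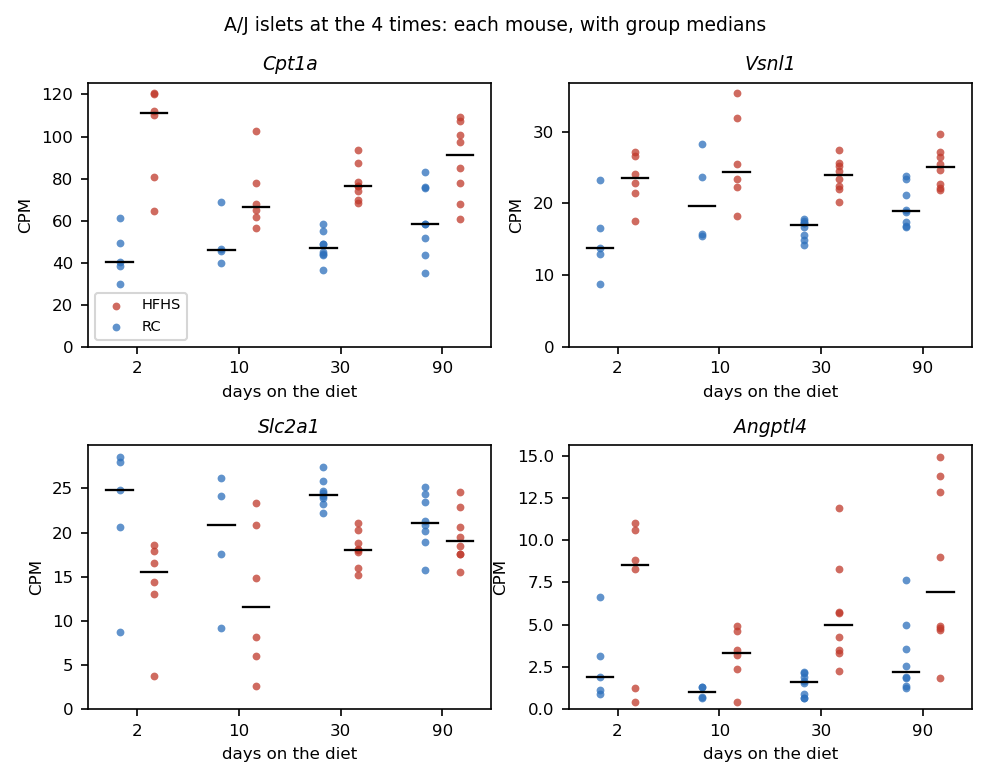
Each point is the level of 1 A/J mouse in CPM at 2, 10, 30 or 90 days (red, HFHS; blue, RC) for Cpt1a, Vsnl1, Slc2a1 and Angptl4, with black bars at the group medians. The Cpt1a medians on HFHS (111.2, 66.6, 76.4 and 91.3 CPM) lie above those on RC at all 4 times.

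The difference between the day 30 effect and the mean of days 2, 10 and 90 passed for 0 of 15535 genes by edgeR (0 percent, with 538 at an unadjusted p under 0.05). For Cpt1a this difference was 0.04 (SE 0.159, adjusted p 0.935). Without the 9 libraries beyond the GC bound 8 genes passed, and none of these was among the 19. For Slc2a1 the difference was 0.16 (SE 0.342) with these libraries and -0.02 (SE 0.123) without them.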

How the data were processed

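RNA of pancreatic islets was sequenced with an unstranded polyA kit (TruSeq RNA v2), per the labels' protocols, so reads of overlapping or antisense genes cannot be told apart. The submitters' processing notes name the build mm9 and the tools HTSeq 0.5.3p3, TopHat 1.3.3, SAMtools 0.1.16 and edgeR, the last with no version. The table deposited by the authors holds raw counts of reads per gene, named by symbol. A second table deposited by the authors holds normalized log2 values and served as an alternative.

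Counts of the 16 libraries alone were filtered with filterByExpr (minimum count 10), scaled by TMM and fitted with the robust quasi-likelihood method of edgeR 4.0.16 in R 4.3.3 (prior count 2). The threshold was an adjusted p of 0.05, by the Benjamini-Hochberg method across every gene in the fit. The SE is the unshrunken log2 fold change over the square root of F. Levels are CPM without TMM factors. Comparisons between strains used 1 fit of the 12 day-30 groups, and between times 1 fit of the 8 A/J groups. GC content came from GENCODE mouse transcripts (GRCm38), matched by symbol, for 99 percent of the genes tested.

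Members and gene lists were chosen with earlier results of these data known. Named genes were Ins1, Ins2, Gcg, Sst, Ppy, Elovl2 and Cpt1a, up to 12 genes per direction past the threshold at a mean of at least 5 CPM by size and by p, up to 5 list members past the threshold, the 8 smallest p of each difference, and the highest-expressed list members as examples. Mouse numbers recur in both diets, and no label says that they pair mice. Over all genes tested, same-numbered mice did not deviate together (correlations -0.564 to 0.0755, 0 of 8 over 0.1). A link of mouse number to single genes was not tested. Angptl4, chosen after its values were seen, was higher in mice 29 to 32 than in mice 25 to 28 on both diets. Its CPM ranges were 5.68 to 11.9 against 2.27 to 4.27 on HFHS, and 1.66 to 2.19 against 0.681 to 1.52 on RC. No 2 libraries of a diet agreed within counting error: over 56 pairs, the chi-square divided by its degrees of freedom was at least 7.1 (median 33). Alternatives used DESeq2 1.42.0 and limma 3.58.1. The scripts were tested on simulated data.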

Additional observations from a re-analysis of the deposited data

Results flagged for a closer look

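Of the 58 groups of 8 libraries checked for a library far from the rest, 5 were marked, and chance marks about 1 in 20. RC mouse 26 had the highest Ins2 level (190000 CPM to 3 digits), the highest share of Ins1 and Ins2 reads (29.7 percent) and the highest GC slope (0.465 log2 per 10 GC points) of the RC mice. HFHS mouse 28 had the highest Gcg level of the HFHS mice (40300 CPM to 3 digits), and RC mouse 32 the highest Sst level of the RC mice (4140 CPM).

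For 9 of the 19 genes the diet effect in A/J differed from the mean of the other 5 strains at day 30, by edgeR's test of that difference. On the log2 scale the difference was 0.52 for Rasd2, -0.38 for Dpp6, 0.46 for Hpgds, -0.45 for Thbs3, -0.28 for Tubb4a, 1.11 for Angptl4, -0.74 for Pnoc, 0.38 for Sytl4 and 0.41 for Obfc2a. Without DBA/2J, 5 of the 9 did not pass: Rasd2 (adjusted p 0.206), Hpgds (0.0768), Tubb4a (0.194), Angptl4 (0.155) and Pnoc (0.153). Against all 5 strains with the GC correction 3 passed, namely Rasd2, Dpp6 and Sytl4.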

How the results depend on the processing

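The count of 19 genes was 80 with the DESeq2 Wald test, 48 with limma voom and sample quality weights, 35 with the GC slope as a covariate, 30 with the acinar list as a covariate, 4 in the fit of the 8 A/J groups, 49 in that of the 12 day-30 groups (added after the data were seen), 8 in that of all 48 groups, and 11 with GC curves as an offset without HFHS mouse 27 (added). The mouse number as a replicate block gave 9 genes, Angptl4 among them (adjusted p 0.0169 by edgeR), but no label says that the numbers pair the mice. Leaving out 1 library gave 8 to 23 genes, and the count moved by over 1.5 times without HFHS mouse 26 (12), 27 (12), 29 (9) or 30 (8) and RC mouse 30 (10) or 31 (9). With DESeq2 size factors 16 genes passed, all among the 19, with no filter 15, all among the 19, 15 of 16 calls on the authors' table were among the 19, and 14 of 16 with the GC offset. The 19 genes kept their direction in all 551 alternative values and missed the threshold in 164. All of these values use libraries in which the 19 were called, so the kept direction is not independent support. No A/J day-30 library lay beyond the GC bound, so that alternative gave no value for this count.

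For the difference from other strains, 43 genes passed without DBA/2J and 164 with the GC offset, and for that from other times, 8 without libraries beyond the GC bound, and 0 without each A/J RC library of days 2 and 10 (added). Elovl2, near 0 throughout, was -0.0206 with voom, -0.0209 in the authors' table, -0.0149 with the GC offset, -0.0393 with it without HFHS mouse 27, -0.083 with the GC slope, -0.0171 with the acinar list, -0.00733 with the replicate block and -0.00978 in the fit of all 48 groups, and ran from -0.035 to 0.0541 when 1 library was left out. Adcyap1, at under 1 CPM, rests on few reads. The cause of these shifts was not tested.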

Other observations

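Of the 43 genes whose diet effect in A/J at day 30 differed from the mean of the other 4 strains without DBA/2J, 15 also passed in the difference from all 5 strains with the GC correction. Those named here were chosen after their values were seen. Dpp4, the peptidase that inactivates incretin hormones, had a log2 diet effect in A/J that was 0.36 above the mean of the other 4 strains (SE 0.0876, adjusted p 0.0447 by edgeR), and 0.29 above that of all 5 with the GC correction (adjusted p 0.0201). Edil3, a secreted integrin ligand, was 0.73 above (SE 0.162, adjusted p 0.0299), with diet effects of 0.14 in A/J and -0.51 to -0.67 in the other 5 strains. Gpr142, a receptor for aromatic amino acids in islets, lay below: its diet effect was -0.14 in A/J and 0.19 to 0.51 in the others (difference -0.41, SE 0.0847, adjusted p 0.0277). In the A/J mice alone these 3 genes did not pass the test of the diet effect.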
